A study of Drosophila melanogaster with 12 samples.

Results

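*CG43134* (FBgn0262608) and *CG7443* (FBgn0037577) are 2 protein-coding genes of *Drosophila melanogaster*, of 17023 gene identifiers counted in ovary polysome-seq libraries. They were picked by their high share of the counts in the polysome libraries. Polysome levels, polysome to input ratios and other measures made from polysome values are therefore given as a description and carry no test. Only the differences between genotypes in the input libraries were tested. The spread in these tests was estimated over all 12 libraries, so that the polysome replicates enter their SEs and p-values. That fit takes the input and polysome libraries of a lysate as independent.

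In polysome-seq a lysate is spun through a sucrose gradient, the heavy fractions that hold mRNAs with several ribosomes are pooled, and their RNA is sequenced beside RNA from the unfractionated lysate, the input. An mRNA that takes a larger share of the polysome library than of the input is said to have a high polysome to input ratio, which is commonly read as translational efficiency. A short coding sequence has room for fewer ribosomes than a long one. Both genes are known by their annotation numbers only, and no function is assigned to them here.

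Ovaries came from females dissected 1 to 3 days after eclosion and fattened on yeast. Each of 3 genotypes, all driven by the germline driver NosGAL4, gave 2 replicates, and each replicate an input and a polysome library from the same lysate, 12 libraries in 6 groups. UAS-*tkv* flies expressed the type I BMP receptor *tkv* and carried no Dicer2 transgene. The *bam* RNAi flies lowered the germline differentiation factor *bam*, the *aramis* RNAi flies lowered the DEAD-box helicase gene *aramis* (*ais*), and both of these lines also carried UAS-Dicer2, so that UAS-*tkv* differs from them by this transgene as well as by its target. The driver acts in germ cells, whereas the dissected organ also holds somatic cells. The labels do not say that replicates were separate crosses or cultures, so p-values measure the spread between these samples, which may be technical. TRIzol was used for the input RNA and acid phenol-chloroform for the gradient fractions, so that fraction and extraction cannot be told apart.

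Total counts ran from 3131667 to 15039925 per library. The targeted gene *ais* stood at 9.87 ± 1.93 CPM (counts per 1000000 counts, with library sizes scaled by TMM; SD, n = 2) in *aramis* RNAi input, 31.9 ± 3.28 in UAS-*tkv* input and 24.7 ± 5.62 in *bam* RNAi input. The *aramis* RNAi level was lower than that of UAS-*tkv* (log2 −1.69, SE 0.41, adjusted p = 0.0163, edgeR) and missed the threshold against *bam* RNAi (log2 −1.33, adjusted p = 0.0909, edgeR). The *bam* RNAi polysome replicates stood apart, with 33.9% of counts in cytosolic ribosomal protein genes in replicate 1 and 9.54% in replicate 2. This share was 14.8% and 23.1% in their inputs, 21.6% and 21.9% in UAS-*tkv* polysomes and 5.17% and 9.17% in *aramis* RNAi polysomes. Neither *bam* RNAi replicate can thus be called the typical one. Means of *bam* RNAi polysome values are given for each replicate or beside values without replicate 1. Mean shares over all 6 polysome libraries include replicate 1.

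In the dm6 build *CG43134* lies on chromosome X from 4247313 to 4247785 on the plus strand. Its transcripts, of 407 and 323 bases, each have 2 exons and the same coding sequence of 82 codons, with a 5′ UTR of 30 bases and a 3′ UTR of 128 or 44 bases. *CG7443* lies on chromosome 3R from 8324316 to 8325036 on the plus strand. Its transcripts of 616 and 592 bases have 3 exons, with 139 and 131 codons, a 5′ UTR of 61 bases and a 3′ UTR of 135 bases. Among 5821 genes with an annotated coding sequence and at least 10 CPM in every input, *CG43134* was longer in codons than 1.01% and *CG7443* than 5.21%. Both are thus short even beside the other well-measured ovary genes.

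*CG43134* was the most counted gene in each of the 6 polysome libraries. Its share of all polysome counts was 1.65% and 4.20% for UAS-*tkv*, 3.60% and 2.0% for *bam* RNAi, and 3.51% and 6.03% for *aramis* RNAi. The highest library thus held 3.65-fold the share of the lowest, and replicates of a genotype were far apart. Its input share was 0.318% and 0.399% for UAS-*tkv*, 0.679% and 0.811% for *bam* RNAi, and 1.20% and 1.51% for *aramis* RNAi. Each input was below each polysome library, and the input replicates lay close together. Its rank among input genes was 38 and 13 for UAS-*tkv*, 3 and 3 for *bam* RNAi, and 3 and 2 for *aramis* RNAi.

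*CG7443* took 0.298% and 0.554% of polysome counts for UAS-*tkv*, 1.29% and 1.14% for *bam* RNAi, and 1.34% and 1.53% for *aramis* RNAi. Its rank was 46 and 6 for the UAS-*tkv* polysomes, 2 and 2 for *bam* RNAi and 3 and 3 for *aramis* RNAi, so that its place near the top held in the RNAi lines and for UAS-*tkv* replicate 2 but not for UAS-*tkv* replicate 1. In the inputs it took 0.121% and 0.258% for UAS-*tkv*, 0.250% and 0.632% for *bam* RNAi, and 0.761% and 0.781% for *aramis* RNAi. The *bam* RNAi inputs lay far apart, while the *aramis* RNAi inputs almost coincided. Counting error was small beside this spread. In the library with the fewest *CG7443* reads, 10583 in UAS-*tkv* input replicate 1, the exact (Clopper-Pearson) 95% interval of the share ran from 0.119% to 0.124%. Such intervals hold for counting error alone, as no molecular identifiers were used.

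**Figure D1:**
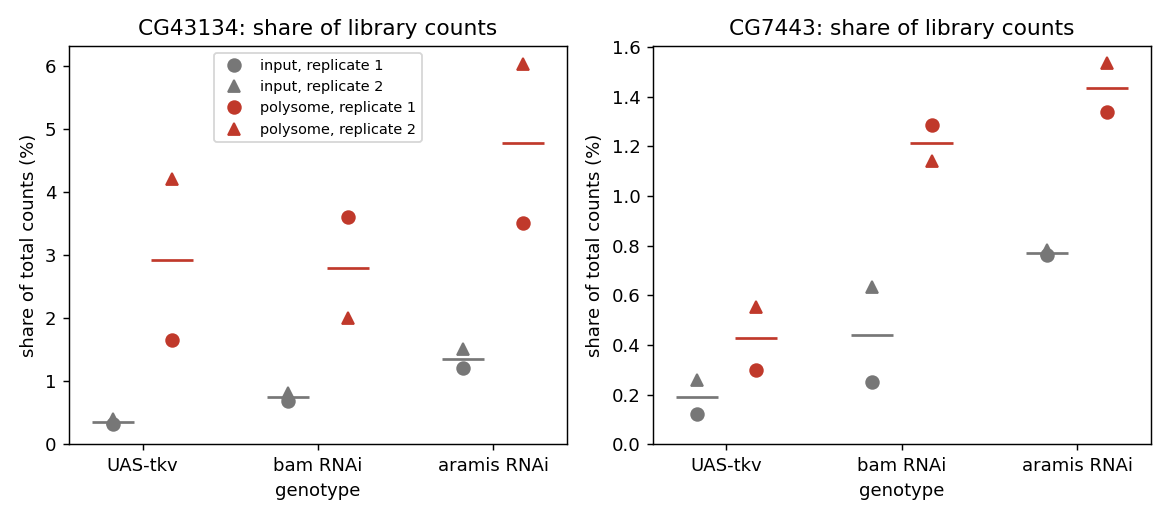
Share of total counts in percent (y axis, from 0, a different range in each panel) of *CG43134* (left) and *CG7443* (right) by genotype (x axis), with grey symbols for input, red for polysome, circles for replicate 1, triangles for replicate 2 and bars for the mean of the 2 replicates. Each *CG43134* polysome library, from 1.65% to 6.03%, lies above each of its inputs, whereas the *CG7443* inputs of *aramis* RNAi, at 0.761% and 0.781%, lie above its UAS-*tkv* polysome libraries.

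Together both genes held from 0.439% to 2.30% of input counts and from 1.95% to 7.56% of polysome counts. By mean polysome share over the 6 libraries *CG43134* came first at 3.50% and *CG7443* ranked 3 at 1.02%. FBgn0000556, which the annotation used here does not name, lay between them at 1.09%, and it was the most counted gene in each of the 6 inputs, from 1.67% to 2.19%. *Act57B*, which encodes a muscle actin, followed at 0.853%, then *eEF2*, the translation elongation factor, at 0.567%. The large-subunit ribosomal protein genes *RpLP0* and *RpL8* came next at 0.513% and 0.505%. Of these 5 genes beside the chosen pair, FBgn0000556, *eEF2* and *Act57B* held a smaller mean share of polysomes than of inputs, with ratios of the mean shares of 0.542, 0.745 and 0.899. The ratio was 1.35 for *RpLP0* and 1.40 for *RpL8*. Both ratios, and the place of both genes in this order, rest on *bam* RNAi polysome replicate 1. There their shares were 1.27% and 1.21%, against 0.225% and 0.213% in replicate 2. Both ribosomal protein genes held more of the polysomes than of the input in the UAS-*tkv* lysates and *bam* RNAi replicate 1. They held less in *bam* RNAi replicate 2 and both *aramis* RNAi lysates.

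Shares of counts favour long genes, so levels of both genes were compared in TPM, which divides counts by exon length and scales each library to 1000000. TPM covers only the 16647 identifiers with an annotated exon length. The others, FBgn0000556 among them, held 4.13% to 6.46% of the counts of a library and have no TPM rank. Among the annotated genes *CG43134* ranked 1 or 2 in every library, from 12813 to 197500 TPM. The TPM level of *CG43134* was 1.94 to 11.5 times that of *CG7443*. *CG7443* had its lowest TPM rank, 73, in UAS-*tkv* input replicate 1, and ranked from 2 to 14 in the other 11 libraries.

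The order of mean polysome shares of *CG43134* was *aramis* RNAi, UAS-*tkv*, *bam* RNAi. All 3 groups overlapped, with ratios of means of 1.63 for *aramis* RNAi over UAS-*tkv* and 0.956 for *bam* RNAi over UAS-*tkv*. For *CG7443* the order was *aramis* RNAi, *bam* RNAi, UAS-*tkv*. Its polysome groups did not overlap, with mean shares 3.37-fold higher with *aramis* RNAi than with UAS-*tkv*, 2.85-fold higher with *bam* RNAi than with UAS-*tkv* and 1.18-fold higher with *aramis* RNAi than with *bam* RNAi. Among the 9745 genes that passed the filter on low counts, both polysome shares lay above both of the other group in 31.3% for *aramis* RNAi over UAS-*tkv*, 10.9% for *bam* RNAi over UAS-*tkv* and 23.1% for *aramis* RNAi over *bam* RNAi. Without *bam* RNAi polysome replicate 1, an alternative chosen after seeing the data, the mean share of *bam* RNAi over UAS-*tkv* was 0.682 for *CG43134* and 2.68 for *CG7443*, and that of *aramis* RNAi over *bam* RNAi was 2.39 and 1.26. Since the genes were chosen on these values, nothing is read from them.

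Within a lysate the polysome share of *CG43134* was 5.20 and 10.5 times its input share in UAS-*tkv*, 5.30 and 2.46 times in *bam* RNAi and 2.92 and 3.98 times in *aramis* RNAi. For *CG7443* the ratios were 2.46 and 2.15 for UAS-*tkv*, 5.14 and 1.80 for *bam* RNAi and 1.76 and 1.96 for *aramis* RNAi. Both genes had the larger share in polysomes in all 6 lysates, as did 13.4% of the 9745 genes. The geometric mean ratios of *CG43134* were 7.40, 3.61 and 3.41 in UAS-*tkv*, *bam* RNAi and *aramis* RNAi, with SDs on the log2 scale of 0.72, 0.78 and 0.31 (n = 2). Those of *CG7443* were 2.30, 3.04 and 1.86, with SDs of 0.14, 1.07 and 0.11 on the log2 scale.

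Among 5996 genes with at least 10 CPM in every input, *CG43134* had rank 3 and 1 by this ratio for UAS-*tkv*, 39 and 27 for *bam* RNAi, and 1 and 3 for *aramis* RNAi. *CG7443* had rank 124 and 365 for UAS-*tkv*, 45 and 511 for *bam* RNAi and 503 and 283 for *aramis* RNAi. The median ratio of these genes was 0.942 and 0.854 for UAS-*tkv*, 0.547 and 1.29 for *bam* RNAi and 1.24 and 1.10 for *aramis* RNAi. *bam* RNAi replicate 1, with the lowest median, also held the largest ribosomal protein share in its polysomes, at 33.9%, and the part of this share in the ratios was not tested. Relative to the median, *CG43134* stood at 9.68 and 1.91 for the *bam* RNAi replicates, 5.53 and 12.3 for UAS-*tkv* and 2.36 and 3.62 for *aramis* RNAi. *CG7443* stood at 9.39 and 1.40 for *bam* RNAi, 2.61 and 2.52 for UAS-*tkv* and 1.42 and 1.78 for *aramis* RNAi. The 5th to 95th percentiles of all ratios ran from 0.272 to 2.09 and from 0.214 to 2.27 in the UAS-*tkv* lysates. In *aramis* RNAi they ran from 0.703 to 1.88 and from 0.496 to 1.94, a narrower spread, and division by the median leaves this difference in place. By rank among the 5996 genes UAS-*tkv* and *aramis* RNAi overlapped for both genes. Relative to the median the *bam* RNAi replicates overlapped both other genotypes.

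**Figure D2:**
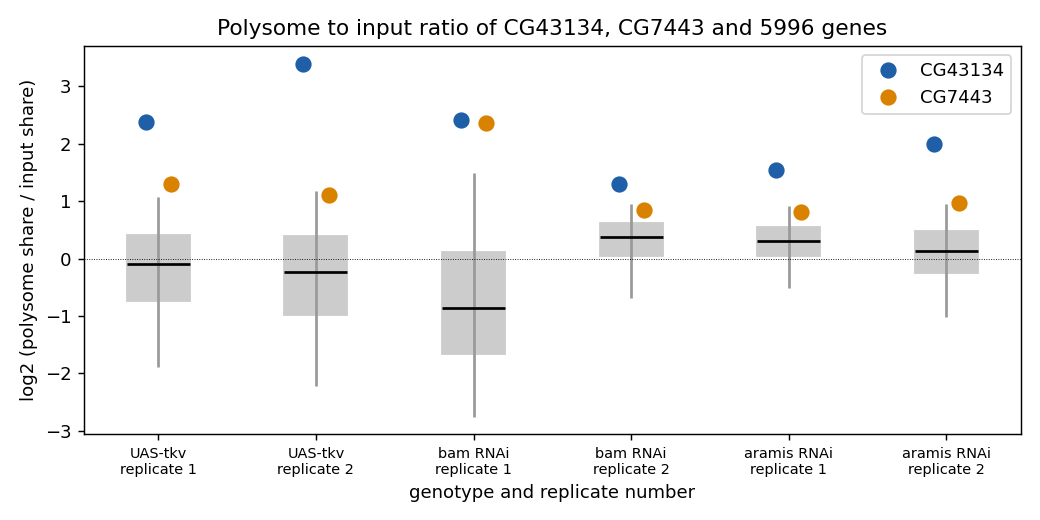
Log2 of polysome share over input share (y axis) in each lysate (x axis) for *CG43134* (blue), *CG7443* (orange) and 5996 genes, whose median is the black bar, whose quartiles bound the grey box and whose 5th to 95th percentiles are the grey line. *CG43134* lies above the 95th percentile in all 6 lysates, while *CG7443* lies just above it in UAS-*tkv* replicate 1 and near or below it elsewhere except *bam* RNAi replicate 1, where its ratio was 5.14.

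The counts of both genes in a single library share that library's total, so that their ratio needs no scaling. *CG43134* had 2.61 and 1.55 times the counts of *CG7443* in the UAS-*tkv* inputs and 5.54 and 7.59 times in the matched polysomes. The ratio was 2.71 and 1.28 in the *bam* RNAi inputs and 2.80 and 1.75 in the polysomes, and 1.58 and 1.94 in the *aramis* RNAi inputs and 2.63 and 3.93 in the polysomes. The polysome value was 2.12 and 4.90 times the input value in UAS-*tkv*, 1.66 and 2.03 times in *aramis* RNAi, and 1.03 and 1.37 times in *bam* RNAi. *CG43134* was thus the more polysome-enriched of the pair in each lysate, though by little in *bam* RNAi replicate 1.

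Coding length went along with the ratio across genes. In UAS-*tkv* the median of the gene's geometric mean ratio was 1.76 for the 118 genes of up to 100 codons, 1.66 for the 264 genes of 101 to 150, 1.31 from 151 to 300, 1.00 from 301 to 600 and 0.590 above 600 codons. In *aramis* RNAi the medians ran from 1.59 in the shortest class to 1.05 in the longest, and in *bam* RNAi they were 1.10, 1.35, 1.16, 0.957 and 0.645 from the shortest to the longest class. The *bam* RNAi replicates differed, with medians of 1.11, 1.41, 1.04, 0.675 and 0.339 in replicate 1 and of 1.32, 1.42, 1.38, 1.31 and 1.22 in replicate 2. *CG43134*, in the shortest class, had ratios above the class median in all 3 genotypes. Among the 382 genes of up to 150 codons it ranked 1 for UAS-*tkv*, 4 for *bam* RNAi and 2 for *aramis* RNAi, and *CG7443* ranked 76, 10 and 92. In the *bam* RNAi replicates taken singly *CG43134* ranked 19 and 2, and *CG7443* ranked 21 and 52. Within the short genes *CG43134* thus stood ahead of *CG7443* in each genotype, by little in *bam* RNAi replicate 1. Genes are not independent replicates, and the part of coding length in the ratios was not tested.

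**Figure D3:**
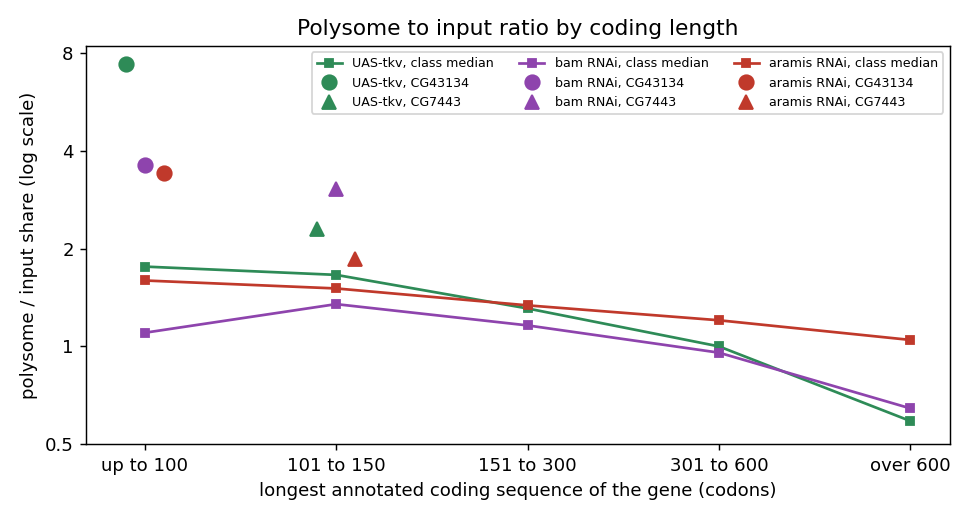
Polysome share over input share (y axis, log scale, geometric mean of 2 replicates) against coding length class in codons (x axis), with squares and lines for the median of all genes of a class, circles for *CG43134* and triangles for *CG7443*, coloured by genotype. The class medians run from 1.76 to 0.590 in UAS-*tkv*, and *CG43134* lies above its class at 7.40, 3.61 and 3.41 in UAS-*tkv*, *bam* RNAi and *aramis* RNAi.

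The inputs ask how the mRNA levels of both genes differ between genotypes. The inputs do not enter the polysome share, but they come from the same lysates as the polysome libraries. On the TMM scale *CG43134* stood at 2875 and 3469 CPM for the UAS-*tkv* inputs, 6003 and 8305 for *bam* RNAi and 14768 and 17875 for *aramis* RNAi. No 2 groups overlapped. *CG7443* stood at 1099 and 2239 CPM for UAS-*tkv*, 2213 and 6477 for *bam* RNAi and 9354 and 9224 for *aramis* RNAi. Here *aramis* RNAi lay above both other groups, which overlapped by a narrow margin. By shares, both genes had both *aramis* RNAi inputs above both UAS-*tkv* inputs, as did 24.7% of the 9745 genes. Both also had them above both *bam* RNAi inputs, as did 21.9%. For 1 of the 2, *CG43134*, both *bam* RNAi inputs lay above both UAS-*tkv* inputs, as for 17.7% of genes.

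Both genes were higher with *aramis* RNAi than with UAS-*tkv* input by edgeR's quasi-likelihood test with Benjamini-Hochberg adjustment over 9745 genes, where 10.1% of genes were called higher at an adjusted p under 0.05. The log2 fold change of *CG43134* was 2.36 (SE 0.75, adjusted p = 0.0477, edgeR, n = 2 against 2), with both *aramis* RNAi libraries above both UAS-*tkv* libraries. That of *CG7443* was 2.48 (SE 0.67, adjusted p = 0.0249, edgeR), again with both libraries above both. The changes exceeded those of 95.3% and 95.9% of genes tested, whose median log2 fold change was −0.04. For *CG43134* and *CG7443* the adjusted p was 0.00398 and 0.0185 with the 6 inputs fitted alone (edgeR), and 0.00018 and 5.27e-05 by DESeq2. In the fit over all 12 libraries the call of *CG43134* lay close to the threshold. It was lost with RLE size factors in place of TMM (adjusted p = 0.0629, edgeR), and both calls were lost on leaving out any 1 of the 4 input libraries compared, with adjusted p from 0.174 to 0.322 for *CG43134* and from 0.0592 to 0.263 for *CG7443* (edgeR).

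Neither gene was called in the other input comparisons. For *bam* RNAi over UAS-*tkv* the changes of *CG43134* and *CG7443* still exceeded those of 94.3% and 96.0% of genes tested. For *aramis* RNAi over *bam* RNAi they exceeded those of 88.8% and 86.8%. Between *aramis* RNAi and *bam* RNAi the log2 fold changes were 1.19 (SE 0.72, adjusted p = 0.361) for *CG43134* and 1.10 (SE 0.64, adjusted p = 0.344) for *CG7443* by edgeR, where 0.944% of genes were called higher in *aramis* RNAi. With the 6 inputs fitted alone, *CG43134* passed (log2 1.16, adjusted p = 0.0435, edgeR). Between *bam* RNAi and UAS-*tkv* they were 1.17 (SE 0.72, adjusted p = 1) and 1.38 (SE 0.65, adjusted p = 0.868) by edgeR, where 0.0308% of genes were called higher in *bam* RNAi. In this fit over all 12 libraries, edgeR gave 0 of the 2 genes an unadjusted p under 0.05 in these comparisons, as against 2184 of 9745 genes for *aramis* RNAi over or under *bam* RNAi and 565 for *bam* RNAi over or under UAS-*tkv*. DESeq2 gave both genes unadjusted p from 0.0100 to 0.0381 and adjusted p from 0.127 to 0.550 in them. For *CG7443* the *bam* RNAi inputs decided the size of the estimates. Its log2 fold change of *aramis* RNAi over *bam* RNAi was 0.47 without *bam* RNAi input replicate 1 and 2.06 without replicate 2, and that of *bam* RNAi over UAS-*tkv* was 1.93 and 0.41. The estimates were positive throughout, but with 2 libraries a group their standard errors, of 0.64 to 0.72 on the log2 scale, were above the median of 0.43 over all genes.

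Several marker lists of other cell types moved with the same comparison. The lists were chosen with earlier results of these data known, so their calls are given as a description. Of 15 muscle sheath genes tested (contractile proteins such as *Mhc*, myosin heavy chain), 11 were higher with *aramis* RNAi than with UAS-*tkv* input and 0 lower, against 10.1% of all genes called higher, with a median log2 fold change of 1.95 against −0.04 over all genes. Of 12 hemocyte genes (such as *Hml*, a hemocyte clotting protein) 10 were higher, with a median of 2.57, and of 6 fat body genes 3 were higher, with a median of 1.87. Of 12 escort, cap and follicle cell genes 3 were higher and 1 lower, with a median of 0.42, and of 3 yolk protein genes 0 were called, with a median of −0.87. All 16 germline genes tested were lower, with a median of −2.65, against 8.73% of all genes called lower, and 23 of 24 eggshell genes were lower, with a median of −5.85. In bulk ovaries fewer cells of a type and less RNA per cell cannot be told apart. No muscle sheath or hemocyte gene was at 0 in every library. In *aramis* RNAi against *bam* RNAi 0 of 15 muscle sheath and 4 of 12 hemocyte genes were called higher, against 0.944% of all genes, and in *bam* RNAi against UAS-*tkv* 0 and 1, against 0.0308% (edgeR).

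The summed share of the 15 muscle sheath genes was 0.929% and 2.06% for the UAS-*tkv* inputs, 1.91% and 2.90% for *bam* RNAi and 4.31% and 4.21% for *aramis* RNAi. Within UAS-*tkv* and within *bam* RNAi, the input with more muscle sheath counts also had more *CG7443* and more *CG43134*. Within *aramis* RNAi, where the muscle sheath sums almost coincided, the input with slightly more had less of both genes. Per unit of this muscle share, *CG7443* stood at 0.131 and 0.125 for the UAS-*tkv* inputs, 0.131 and 0.218 for *bam* RNAi and 0.176 and 0.185 for *aramis* RNAi. *CG43134* stood at 0.342 and 0.194, 0.356 and 0.280, and 0.279 and 0.359, respectively. Relative to the muscle sheath genes, the *CG43134* inputs of all 3 genotypes overlapped, and the *CG7443* inputs of *aramis* RNAi lay above those of UAS-*tkv*. The hemocyte sum was 0.241% and 0.400% for the UAS-*tkv* inputs, 0.561% and 0.314% for *bam* RNAi and 0.797% and 0.778% for *aramis* RNAi. The input with more hemocyte counts had more of both genes within UAS-*tkv* and less within *bam* RNAi and *aramis* RNAi. The escort, cap and follicle cell sum was 0.128% and 0.157% for UAS-*tkv*, 0.238% and 0.173% for *bam* RNAi and 0.210% and 0.221% for *aramis* RNAi. The part of these cell types in the input differences was not tested.

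In the polysomes the values per unit of muscle sheath share were spread more widely. *CG43134* stood at 2.23 and 3.39 times the muscle sheath share in UAS-*tkv*, 3.58 and 0.739 times in *bam* RNAi and 0.804 and 1.53 times in *aramis* RNAi. *CG7443* stood at 0.402 and 0.446 for UAS-*tkv*, 1.28 and 0.422 for *bam* RNAi and 0.306 and 0.388 for *aramis* RNAi. Each polysome library held more of either gene per unit of muscle sheath counts than the input of its lysate.

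**Figure D4:**
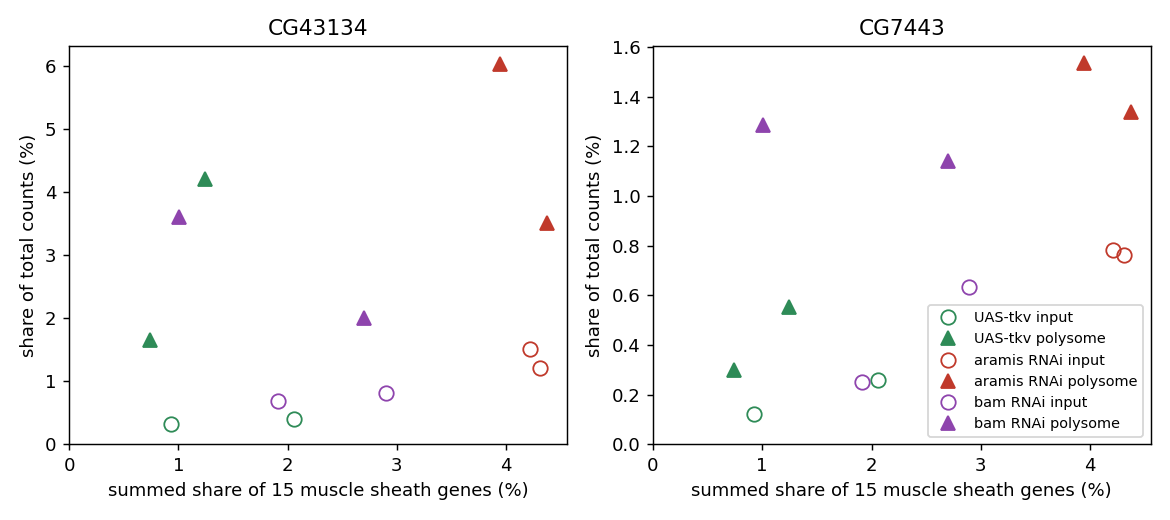
Share of total counts in percent of *CG43134* (left) and *CG7443* (right) (y axes, from 0, different ranges) against the summed share in percent of 15 muscle sheath genes (x axis) in the 12 libraries, with open circles for inputs and filled triangles for polysomes, coloured by genotype. The *aramis* RNAi inputs lie farthest right among inputs, at 4.21% and 4.31%, and have the highest input share of both genes.

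The genes whose levels followed each of the pair most closely over the 12 libraries were found by Pearson's r of log2 CPM among 7081 genes with a mean of at least 10 CPM. Since input and polysome libraries share lysates, r is a description, and the median r of all genes was −0.07 for both. For *CG43134* they were *Vps60*, an ESCRT-III-related gene of membrane remodelling, at r = 0.977, then *CG18628* (0.975), *CG44242* (0.973), *CG8369* (0.970) and *CG15209* (0.966). Apart from *Vps60*, with 226 codons, these encode short products of 63, 80, 94 and 147 codons. *CG18628*, at 357 to 5793 CPM, had geometric mean polysome to input ratios of 4.57 for UAS-*tkv*, 3.36 for *bam* RNAi and 2.48 for *aramis* RNAi, the closest of the 5 to those of *CG43134*. Its ratios in the *bam* RNAi replicates were 5.41 and 2.09.

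For *CG7443* the most alike genes were *CG9338* (r = 0.990), the carbonic anhydrase family gene *CAH9* (0.979), the small heat shock protein gene *l(2)efl* (0.979), the glutathione transferase gene *GstE12* (0.979) and *CG9864* (0.976). They have 147, 311, 187, 223 and 465 codons, so that each is longer than the 139 codons of *CG7443*. Their geometric mean ratios ran from 1.75 to 2.36 in UAS-*tkv*, where *CG7443* had 2.30, and from 1.42 to 1.78 in *aramis* RNAi, where *CG7443* lay above all 5 at 1.86. In *bam* RNAi they ran from 1.98 to 2.86, below the 3.04 of *CG7443*, with 2.37 to 4.30 in replicate 1 and 1.64 to 2.10 in replicate 2, where *CG7443* had 5.14 and 1.80. The lists of 5 shared no gene, and *CG43134* and *CG7443* were less alike, at r = 0.847 over the 12 libraries, 0.948 over the 6 inputs and 0.665 over the 6 polysomes.

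Of the neighbouring genes, *CG43135*, on the same strand 591 bases beyond *CG43134*, had 12 to 458 counts, or 0.0173% to 0.140% of the *CG43134* counts of a library. It was higher with *aramis* RNAi than with UAS-*tkv* input (log2 3.24, SE 0.78, adjusted p = 0.0152, edgeR). *Muc4B*, on the opposite strand 1173 bases before *CG43134*, had 0 to 181 counts and a log2 estimate of −2.94 in the same comparison (adjusted p = 0.0893, edgeR). *CG7443* lies inside the span of *Poxm*, a Pax family transcription factor gene on the opposite strand, with 0 shared exon bases. *Poxm* had 40 to 912 counts and was higher with *aramis* RNAi than with UAS-*tkv* input (log2 2.63, SE 0.57, adjusted p = 0.0101, edgeR). Whether counting used strand is not given in the sources used here. *Or85a*, an odorant receptor gene 1261 bases before *CG7443*, had 0 to 21 counts. *COX7A*, a cytochrome c oxidase subunit gene 14907 bases beyond it, had 2826 to 13519 counts and was not called, with a log2 fold change of 0.50 (adjusted p = 0.518, edgeR).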

How the data were processed

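The authors deposited read counts per gene for 12 poly(A)-selected directional libraries, aligned to dm6 with HISAT2 2.1.0 and counted with featureCounts 1.4.6 per the labels. The annotation release, strand setting and treatment of multi-mapping reads are not given in the sources used here. Groups came from the sample labels. Both genes and all gene lists were chosen with earlier results of these data known.

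Names, exon lengths and dm6 coordinates came from Ensembl release 115 (16647 of 17023 identifiers). Shares are counts over library totals, and TPM uses exon length. In R 4.3.3, edgeR 4.0.16 kept 9745 genes (filterByExpr), scaled by TMM and fitted 6 group means over the 12 libraries by quasi-likelihood (6 residual degrees of freedom). Input contrasts were adjusted by Benjamini-Hochberg over all genes. SE is the log2 fold change over the square root of F. DESeq2 1.42.0 was an alternative. Figures and shares used Python 3.11.15 with pandas 2.3.3 and matplotlib 3.10.9.

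Beside the chosen pair, the genes named were the 5 with the highest r to each, the next 5 by mean polysome share, the nearest and overlapping genes, and *ais*.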

Additional observations from a re-analysis of the deposited data

How the results depend on the processing

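The direction was the same in all 60 results of the input comparisons, counted by gene, comparison and alternative setting. The ratios stayed above 1 in all 30 results, counted by gene, genotype and alternative setting. The genes were chosen on polysome values, so nothing is read from this. Against UAS-*tkv*, the *aramis* RNAi call of *CG43134* was lost with RLE size factors (log2 2.36, adjusted p = 0.0629, edgeR), with the replicate block (log2 2.36, adjusted p = 0.0584) and without any 1 input library (log2 2.15 to 2.49). That of *CG7443* was kept with the block (adjusted p = 0.0207) and lost without any 1 library (log2 1.97 to 3.03). With the 6 inputs alone *CG43134* passed in *aramis* RNAi against *bam* RNAi (log2 1.16, adjusted p = 0.0435, edgeR). The replicate block changed no other call of the 2 genes. Between genotypes, the input differences of replicate 1 from replicate 2 correlated at 0.17, −0.02 and 0.16. With 1 such difference per genotype, these values cannot show whether a replicate number shares a batch across genotypes.

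Over all genes, *aramis* RNAi against UAS-*tkv* gave 989 higher and 851 lower, and 3447 calls with the 6 inputs alone and 266 to 1078 without 1 library. *aramis* RNAi against *bam* RNAi gave 92 and 238, and 1231 calls by DESeq2, 1151 without the low-count filter, 1700 with the 6 inputs alone and 6 to 266 without 1 library. *bam* RNAi against UAS-*tkv* gave 3 and 20, and 112 by DESeq2, 263 without the filter, 42 with the 6 inputs alone, 37 with the replicate block and 0 to 25 without 1 library. Without scaling the median log2 fold change of all genes moved to −0.48 against UAS-*tkv* and −0.37 against *bam* RNAi, the calls split 323 to 1239 and 15 to 339, and *CG43134* (log2 1.92) and *CG7443* (log2 2.02) stayed called against UAS-*tkv*. DESeq2 split *aramis* RNAi against *bam* RNAi 526 to 705 and *bam* RNAi against UAS-*tkv* 40 to 72, and the fit without the filter 604 to 547 and 96 to 167. The cause of these shifts was not tested.

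The *CG7443* ratio moved in UAS-*tkv* to 1.78 with TPM plus 1, and in *aramis* RNAi to 1.57 on the TMM scale, 1.69 with TPM plus 1 and 1.70 with both genes and ribosomal protein genes out of the total. These shifts exceeded the log2 SD of its 2 replicates. The *CG43134* ratio also went to 5.74 with TPM plus 1 in UAS-*tkv*. In *aramis* RNAi it went to 2.89 on the TMM scale, 3.11 with TPM plus 1 and 3.12 with those genes out. Its shifts stayed within its larger SDs, so it was not less sensitive to scaling. With 2 libraries a group, precision was limited by replicates, not by depth.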
